A study of Caenorhabditis elegans with 30 samples.

Results

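The comparison set whole worms of the N2 strain, the standard wild type of Caenorhabditis elegans, kept for a night at 20 C on agar with 15 mM lithium chloride against worms kept for the same night at 20 C on plain NGM agar. It used 6 of the 30 libraries of the study, all 3 of each group, chosen by the treatment and temperature in their labels. None of these worms had been trained or put on ice, all were fed E. coli OP-50, and the RNA was polyadenylated RNA of the whole body. The study asks how cold and lithium affect the forgetting of odour memories, and per the labels worms at 20 C remain cold sensitive. Neither the age of the worms nor whether the replicates came from separate cultures is stated. The p-values therefore measure a spread between libraries that may be technical. It was estimated over all 12 libraries of the lithium experiment, at 15 and 20 C.

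Lithium is a small cation that inhibits inositol monophosphatase, an enzyme that recycles inositol for phosphoinositide signalling, and the kinase GSK-3, which acts in Wnt and insulin signalling. It also inhibits a related bisphosphate nucleotidase. In the worm, loss of the inositol monophosphatase gene ttx-7 alters synapses and thermotaxis.

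Control replicate 2 stood apart from the other libraries. The total count was 12618887 to 13802867 in the lithium libraries and 13049301 to 19369012 in the plain agar libraries. The root mean square log2 difference between control replicate 2 and the other controls was 1.1 and 0.99, against 0.65 between control replicates 1 and 3 and 0.50 to 0.70 between lithium libraries. In that library the summed level of 7 cuticle collagen genes was 1226 CPM (counts per 1000000 of the TMM-scaled library total), while the other controls had 131 and 150 and the lithium libraries 17.1 to 38.4. The summed level of 47 germline genes in it was 6220 CPM, while the other controls had 10515 and 11713 and the lithium libraries 14130 to 15824. Control replicate 2 therefore lay beyond the other controls on the side away from lithium in both lists. Cuticle and germline genes differ between worm stages, and the labels give no stage for any library. Whether control replicate 2 held worms of another stage was not tested, and this bears on the cuticle, moulting, germline and X chromosome values. The main results are given with and without that library.

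Lithium was associated with widespread differences at 20 C, and among genes called the fitted falls were larger than the rises. Of 12392 genes tested, edgeR's quasi-likelihood test with Benjamini-Hochberg adjustment called 732 higher (5.91%) and 784 lower (6.33%) at an adjusted p under 0.05. The median log2 fold change (lithium minus plain agar) was 0.80 among genes called higher and -1.59 among those called lower. A change of at least 2-fold was fitted for 139 of the genes called higher and 629 of those called lower. The median of all genes tested was -0.07. The genes called lower had lower levels: 413 of them reached 10 CPM in the higher group, against 690 of those called higher. In 160 of the lower calls every lithium library, but not every control, lay under the level the low-count filter asks for. The reverse held for 9 of the higher calls. Falls and rises were therefore not compared at a like level.

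Leaving out control replicate 2, the test called 156 genes higher (1.23%) and 266 lower (2.1%) of 12691, which is 3.33% in either direction. Of these, 132 higher and 236 lower genes were also called with all libraries. All 732 and all 784 genes kept their sign, but 296 of those called lower had a log2 fold change over 1.5 times smaller, against 9 of those called higher. The median of the genes called lower moved to -1.17 and that of the genes called higher to 0.63. Control replicate 2 was the control farthest from lithium in 649 of the 732 genes called higher (88.7%) and in 626 of the 784 called lower (79.8%). The same held for 64.8% of all tested genes with a positive and 66.1% of those with a negative fold change. Among the genes called both with and without it, the shares were 78.8% of the 132 higher and 57.6% of the 236 lower genes.

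**Figure D1:**
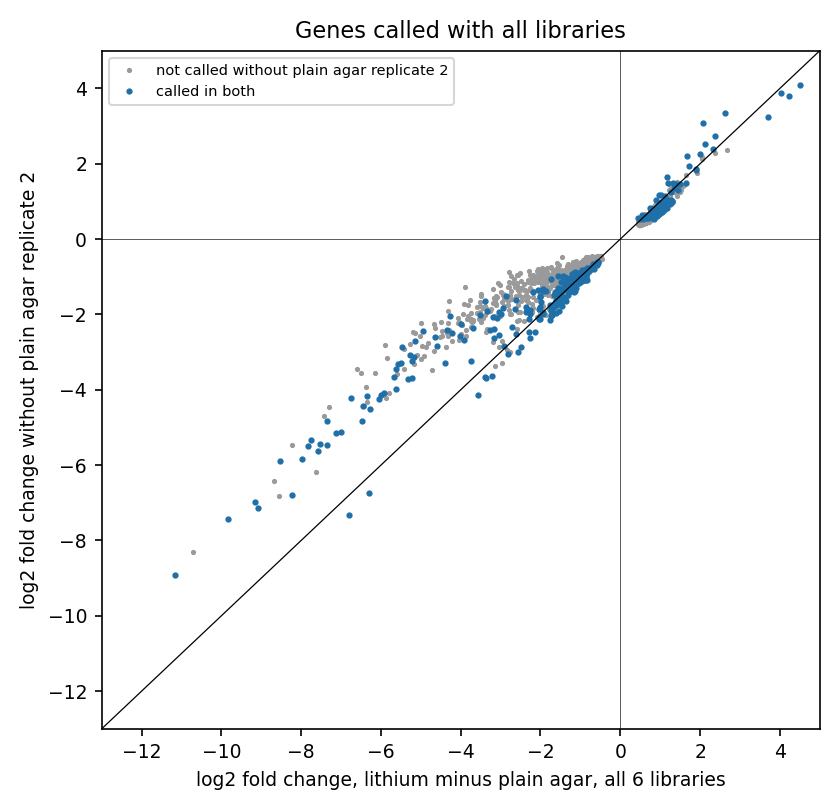
The log2 fold change of each gene called with all libraries (horizontal axis) is plotted against its value without control replicate 2 (vertical axis), with blue points for genes called in both and grey points for the rest. Genes called lower lie mostly above the diagonal, that is, with a smaller fall, while genes called higher lie close to it.

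The number of calls moved with other libraries as well. It was 1240 higher and 1615 lower without control replicate 1, and 357 and 887 without control replicate 3. Leaving out lithium replicate 1, 2 or 3 left 12, 1 or 12 genes higher and 20, 4 or 31 lower. The calls also moved with libraries of 15 C, which lie outside the comparison. Leaving out plain agar replicate 1, 2 or 3 of 15 C gave 737, 841 or 793 calls in place of 1516. Leaving out lithium replicate 1, 2 or 3 of 15 C gave 542, 1797 or 648. Of 106 called genes chosen for description by a rule on size, level or list, 94, 103 and 92 missed the threshold without lithium replicate 1, 2 and 3 of 20 C, and 43 without control replicate 2. With 3 libraries a group an exact permutation test of a single gene cannot go below p = 0.1, so single calls rest on the spread shared across all genes and all 4 groups of the lithium experiment. The 6 libraries of 20 C fitted alone gave 0 calls in edgeR, with 2845 genes at an unadjusted p under 0.05.

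**Figure D2:**
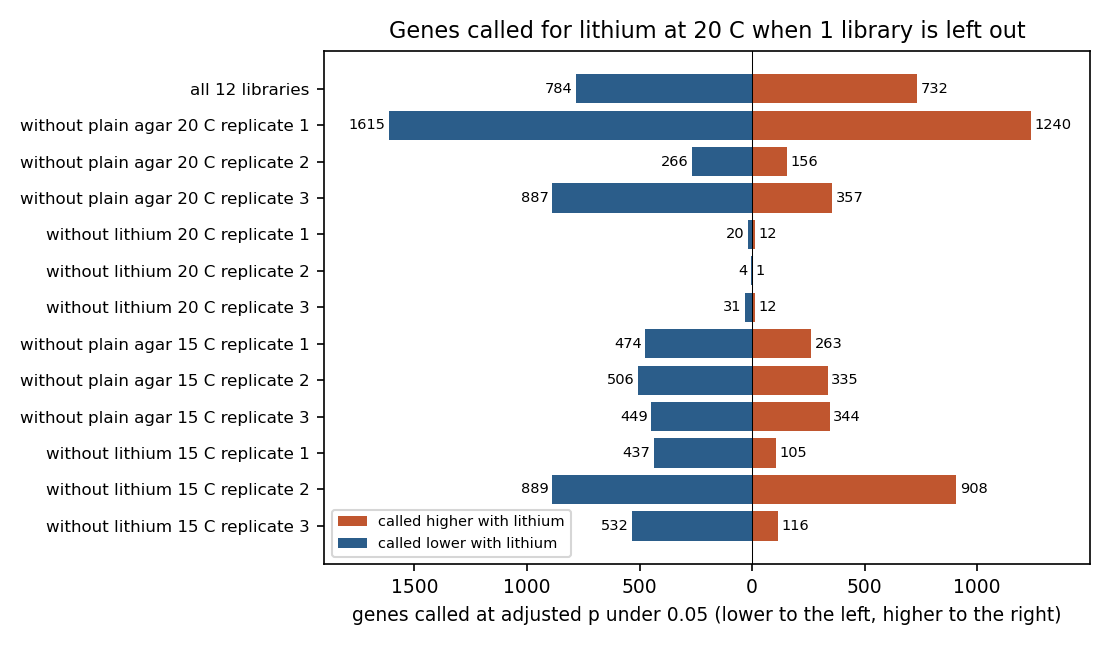
Bars give the number of genes called lower (left) and higher (right) with lithium at 20 C when all 12 libraries of the lithium experiment were fitted and when each was left out in turn. Calls ran from 4 lower and 1 higher without lithium replicate 2 to 1615 lower and 1240 higher without control replicate 1.

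A set of 5 genes passed the threshold whichever of the 6 libraries was left out, 4 of them lower and 1 higher with lithium. They are ttr-16, a transthyretin-like gene, clec-5, a C-type lectin gene, dhp-2, a dihydropyrimidinase gene of pyrimidine breakdown, T16G1.7 and the calponin-like gene clik-3. T16G1.7 and clik-3 lie outside the naming rule and were chosen after their values were seen. The transcript of ttr-16 (chromosome IV, 11063530 to 11064137) stood at 149, 116 and 132 CPM in lithium replicates 1 to 3 and at 366, 418 and 374 on plain agar. The groups did not overlap, and control replicate 2 was level with the others. Groups without overlap, lower with lithium, were found for 15.1% of all genes tested and for 748 of the 784 called lower. The fall of ttr-16 was -1.55 (SE 0.15, adjusted p = 0.0020), and -1.48 to -1.63 with any 1 library left out. Its exons share 209 bases with lin-3 on the opposite strand.

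The level of dhp-2 (chromosome IV, 9978122 to 9980775) was low and even with lithium, at 2.09, 2.00 and 2.21 CPM, against 10.1, 12.55 and 8.17 on plain agar. The log2 fold change was -2.29 (SE 0.26, adjusted p = 0.0042). In clec-5 (chromosome III, 4881888 to 4883606) the lithium libraries stood at 18.5, 15.5 and 19.7 CPM and the controls at 70.01, 129 and 64.3, so that control replicate 2 was the highest, and the value was -2.29 (SE 0.27, adjusted p = 0.0042) with it and -1.91 without. T16G1.7 had a like pattern, with 12.95, 9.49 and 10.7 CPM against 43.1, 78.0 and 38.5 (-2.26, and -1.88 without control replicate 2). The gene that rose, clik-3 (chromosome I, 3419600 to 3424211), stood at 67.9, 59.3 and 68.2 CPM with lithium and at 25.7, 26.2 and 25.03 on plain agar. Its controls lay within 1.14 CPM of each other, and the log2 fold change was 1.34 (SE 0.15, adjusted p = 0.0042).

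Further genes with a strong rise were asp-12, parg-2 and gst-24. They were chosen for the size of their change by a rule that asked for a call with and without control replicate 2 and for no overlap, so neither property is a finding about them. The aspartyl protease gene asp-12 (chromosome V, 8269210 to 8272056) stood at 296, 249 and 386 CPM with lithium and at 87.8, 81.1 and 82.2 on plain agar. All 3 controls were alike, and without control replicate 2 the log2 fold change was 1.87 against 1.89 with it. For parg-2, whose product is a glycohydrolase that removes ADP-ribose chains from proteins, the level stood at 37, 34.5 and 21.6 CPM against 3.55, 15.2 and 3.77. Here control replicate 2 was the control nearest to lithium, so that leaving it out raised the value from 2.06 to 3.08 (adjusted p = 0.0018). The glutathione transferase gene gst-24 rose from between 2.55 and 4.48 CPM to between 9.84 and 12.3 (1.66, SE 0.24, adjusted p = 0.012). The lists these 3 genes belong to went both ways or held few calls: 2 higher and 3 lower of 21 aspartyl and cysteine proteases, 3 higher and 8 lower of 88 glutathione and UDP-glucuronosyl transferases, and 1 of 5 genes of poly(ADP-ribose) metabolism. Of all genes tested 5.91% were called higher and 6.33% lower.

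The remaining genes that the rule chose for the size of their rise were clec-190 (1.33), K08D8.5 (1.19), Y54G2A.36 (1.39), C46G7.5 (1.49) and plep-1 (1.71). The rule again required a call without control replicate 2, where their values were 1.47 to 1.93. C46G7.5 was the most even of them, at 14.4, 12.8 and 13.7 CPM with lithium against 5.68, 4.68 and 4.20 (adjusted p = 0.0079). K08D8.5, a pathogen-response gene, has a close relative in K08D8.4, so its reads are uncertain in their assignment.

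**Figure D3:**
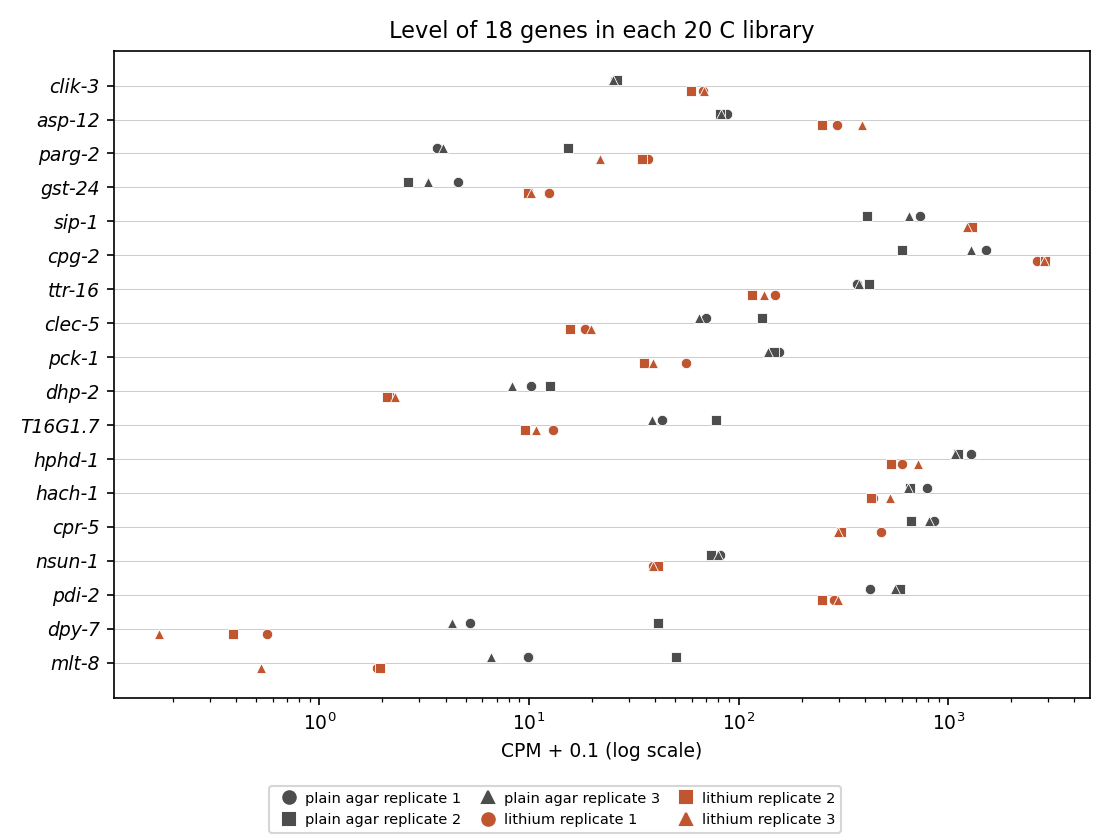
The level of 18 genes in each 20 C library is shown on a log axis (CPM plus 0.1), with orange for lithium, grey for plain agar and a marker shape for each replicate. The controls of clik-3, asp-12, pck-1 and nsun-1 lie close together, while for dpy-7 and mlt-8 control replicate 2 lies far above the other controls.

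The propionate shunt breaks down propionate when vitamin B12 is scarce, and all 7 genes of a list of its enzymes and regulators had a negative value. Of these 3 were called lower (42.9%, against 6.33% of all genes tested), with a median of -0.59 (2 and -0.56 without control replicate 2). The list was written after values had been seen. Its enzyme hphd-1 (chromosome II, 12994354 to 12996571), a transhydrogenase that handles 3-hydroxypropionate, stood at 602, 532 and 721 CPM with lithium and at 1280, 1118 and 1078 on plain agar. The groups did not overlap, and the log2 fold change was -0.91 (SE 0.16, adjusted p = 0.018) with and -0.93 (adjusted p = 0.020) without control replicate 2. The naming rule chose hphd-1, and hach-1, folt-2 and cpr-5 below, for their level. It took them from genes called with and without control replicate 2 and with no overlap, so neither property is a finding about them.

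The hydrolase gene of the step before it, hach-1 (chromosome III, 5555450 to 5557318), stood at 439, 429 and 527 CPM against 795, 657 and 642 (-0.59, SE 0.14, adjusted p = 0.029). The nuclear receptor gene nhr-68, an activator of the shunt, fell by 0.92 (adjusted p = 0.027), and by 0.65 without control replicate 2 (adjusted p = 0.057). The dehydrogenase gene acdh-1, which catalyses the first step, had a value of -0.67 (adjusted p = 0.057), ech-6 one of -0.48 (adjusted p = 0.076) and alh-8 one of -0.51 (adjusted p = 0.13). None of 5 genes of the vitamin B12-dependent route was called, with a median of 0.10. The folate transporter gene folt-2 stood at 388, 429 and 450 CPM with lithium and at 1043, 801 and 771 on plain agar (-1.05, SE 0.20, adjusted p = 0.019).

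Of all genes tested 6.33% were called lower and 5.91% higher. Of 19 genes of gluconeogenesis, the glyoxylate cycle and sugar stores, 3 were called lower (15.8%) and 1 higher (5.26%). Their median was -0.14 (2 lower, none higher and -0.05 without control replicate 2). The ones called lower with all libraries were the carboxykinase genes pck-1 and pck-2 and the trehalase gene tre-3. Each library of pck-1 with lithium, at 55.8, 35.4 and 39.1 CPM, lay under every control, at 155, 147 and 138. The log2 fold change of pck-1 was -1.75 with and without control replicate 2. That of tre-3 was -0.91 and -1.01, and that of pck-2 -0.71 and -0.56, where its call ended (adjusted p = 0.10). Of 33 genes of glycolysis and the citrate cycle 1 was called in each direction (3.03% each), 19 had a positive value, and the median was 0.09. Of 46 genes of fatty acid oxidation and lipolysis, 7 were called lower (15.2%) and 1 higher (2.17%), with a median of -0.14. Leaving out control replicate 2, 3 were called lower and 3 higher, namely ech-9, cpt-1 and cpt-3, and the median was -0.05. The mitochondrial acyl-CoA synthetase gene acs-2 stood at 77.4, 38.8 and 48.3 CPM with lithium against 171, 351 and 140 (-2.01, and -1.5 with an adjusted p of 0.049 without control replicate 2). The acyl-CoA dehydrogenase gene acdh-2 fell by 1.51 and by 1.54 without control replicate 2, while the value of the carnitine palmitoyltransferase gene cpt-4 moved from -3.12 to -1.52 and its call ended (adjusted p = 0.057).

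Breakdown and salvage of pyrimidines went both ways: of 13 genes, dhp-2 and the ureidopropionase gene upb-1 (-0.68) were called lower and the uridine phosphorylase gene upp-1 (0.59) and the thymidylate synthase gene tyms-1 (0.85) higher. Each direction held 15.4% of the list, against 6.33% lower and 5.91% higher of all genes tested. Without control replicate 2 dhp-2 was the one still called, although upp-1 had nearly the same value (0.58, adjusted p = 0.056). Of 24 desaturase, elongase and membrane fluidity genes 1 was called lower (4.17%), fat-3 (-0.99), but not without control replicate 2 (-0.62, adjusted p = 0.097). The level of fat-3 in that library was 467 CPM, against 300 and 197 in the other controls.

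Among intestine markers 5 of 24 were called lower (20.8%, against 6.33% of all genes tested), none higher, and the median was -0.25. In RNA of whole worms, fewer cells of a type and less RNA per cell cannot be told apart. The summed level of the 24 markers was 18308 to 24303 CPM with lithium and 17850 to 21383 on plain agar, so the groups overlapped. The lysosomal cysteine protease gene cpr-5 (chromosome V, 1132598 to 1134036) stood at 477, 307 and 297 CPM against 856, 668 and 812, and its log2 fold change of -1.11 became -1.21 without control replicate 2. The rule that chose cpr-5 required a call in both fits and no overlap. The peptide transporter gene pept-1 fell by 1.17, the acid phosphatase gene pho-1 by 0.88 and the sodium-proton exchanger gene nhx-2 by 0.85. In these 3 genes control replicate 2 was the control nearest to lithium, and the falls were 1.4, 1.09 and 1.07 without it. The fall of cpr-3 (-1.2) was the 1 call of the 5 that ended without it (-0.94, adjusted p = 0.11). The neighbouring protease gene cpr-8 (chromosome V, 1134602 to 1139182) fell by 1.59 and by 1.74 without control replicate 2.

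The 6 vitellogenin genes, which encode yolk proteins made in the intestine, all had negative values (median -0.46), and vit-3 was called (-0.78, SE 0.22, adjusted p = 0.041). Its value without control replicate 2 was -0.88 (adjusted p = 0.053). The summed level of the 6 overlapped between groups, at 95790 to 130342 CPM with lithium and 107180 to 138914 on plain agar. Reads of vit-3, vit-4 and vit-5 are shared among near-identical copies.

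Of all genes tested 6.33% were called lower and 5.91% higher. Of 38 genes of the nucleolus and of ribosomal RNA processing 8 were called lower (21.1%) and 2 higher (5.26%), with a median of -0.27. Leaving out control replicate 2, 5 were called lower and none higher, with a median of -0.29. The ribosomal RNA methyltransferase gene nsun-1 (chromosome II, 471262 to 475940) stood at 38.8, 41.1 and 38.8 CPM with lithium and at 81.6, 73.4 and 79.9 on plain agar. The log2 fold change was -0.98 (SE 0.12, adjusted p = 0.0046). As nsun-1 was chosen from its list for a small p, close replicates and groups apart are not findings about it. Its exons share 1299 bases with W07E6.5 on the opposite strand, so reads of the pair can be told apart only if counting used strand.

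The gene rpc-2 for a subunit of RNA polymerase III stood at 100, 105 and 101 CPM against 167, 176 and 178 (-0.77, SE 0.12, adjusted p = 0.015). The snoRNP protein gene nol-58 stood at 139, 153 and 157 CPM against 256, 236 and 266 (-0.76, SE 0.14, adjusted p = 0.018), and its partner nol-56 fell by 0.56. Further members called lower were nol-6 (-0.82), nol-14 (-0.91), ddx-27 (-0.58) and nath-10 (-0.51), of which nol-6 was called without control replicate 2 as well. The members called higher were imp-3 (0.58) and ebp-2 (0.61), whose name in worms stands for a microtubule end-binding protein. Members were matched by symbol, and whether imp-3 encodes a nucleolar protein in worms was not checked. Cytosolic ribosomal protein genes did not share the fall: 65 of 76 lay above 0, with a median of 0.23 (0.16 without control replicate 2), and the 1 call was rpl-11.2 (-0.56), which was not called without that library (-0.46, adjusted p = 0.12). The translation regulator gene gcn-1, which activates the eIF2 kinase GCN2, fell from 133, 144 and 200 CPM to 93.3, 80.02 and 74.0 (-0.95, and -1.02 without control replicate 2).

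Of 27 heat shock and endoplasmic reticulum chaperone genes 4 were called lower (14.8%, against 6.33% of all genes tested) and none higher. All 4 were also called without control replicate 2. In the list as a whole 10 values were positive and 17 negative, with a median of -0.19. The protein disulfide isomerase gene pdi-2, whose product is also a subunit of prolyl 4-hydroxylase, stood at 284, 251 and 298 CPM against 423, 587 and 555 (-0.91, SE 0.16, adjusted p = 0.018). The DnaJ-domain gene dnj-7 stood at 26.6, 31.7 and 26.8 CPM against 52.2, 52.3 and 49.6 (-0.86, SE 0.16), the 3 controls being nearly equal. The values of pdi-6 and of the BiP-type gene hsp-3 were -0.75 and -0.67. All 4 of these genes lie on chromosome X.

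Basement membrane genes and the enzymes that modify collagen were lower. Of 16 members, a list written after values had been seen, none had a positive value and the median was -1.11. Called lower were 10 of them (62.5%, against 6.33% of all genes tested). The nidogen gene nid-1, a link between laminin and collagen networks, stood at 46.1, 78.6 and 56.9 CPM with lithium and at 125, 143 and 129 on plain agar (-1.13, and -1.07 without control replicate 2). The F-spondin gene spon-1 (-2.38) and the procollagen lysyl hydroxylase gene let-268 (-1.43) were also called without it, at -1.81 and -1.01. The laminin genes lam-1 (-1.64), lam-2 (-1.59), lam-3 (-3.18) and epi-1 (-1.51) and the prolyl 4-hydroxylase genes phy-2 (-0.96) and dpy-18 (-0.94) missed the threshold without it. In lam-1 the lithium libraries stood at 37.9, 40.7 and 31.02 CPM and the controls at 64.8, 193 and 83.4. The summed level of the 16 genes was 1143 to 1597 CPM with lithium and 1651, 3763 and 2421 in control replicates 1 to 3.

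Collagens that set body shape and genes of the moult had large falls that were smaller without control replicate 2. The nematode cuticle is rebuilt at each larval moult from collagens, cuticlins and a temporary apical matrix. Of 7 tested collagens that set body shape (19 found), all 7 were called lower, with a median of -4.34, and 3 without control replicate 2, with a median of -2.49. In 3 of the 7 every lithium library lay under the level the filter asks for, so they were tested because other groups were above it, and the count is partly set by the filter. The same held for 8 of the 15 hedgehog-related and patched-related genes called lower below and for 4 of 8 cuticlins, against 160 of the 784 genes called lower in all. The furrow collagen gene dpy-7 stood at 0.47, 0.29 and 0.071 CPM with lithium and at 5.13, 41.1 and 4.20 on plain agar. The groups did not overlap, but control replicate 2 was about 8 times above the other controls, and the value was -5.91 with it and -4.07 (adjusted p = 0.033) without. In dpy-10 it moved from -3.39 to -1.63 (adjusted p = 0.039), and in dpy-2 from -5.32 to -3.70.

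Of 156 numbered col genes found 72 were tested. Of these 10 were called lower (13.9%, against 6.33% of all genes tested) and none higher, with a median of -0.35. Without control replicate 2, 4 were called, with a median of -0.34. In 12 of the 72 every lithium library, but not every control, lay under the level the filter asks for, and 1 had the reverse. Of the 10 lower calls 6 came from these 12, so the count is partly set by the filter. Reads of near-identical collagens are uncertain in their assignment. Of 20 tested cuticlins 8 were called lower (median -1.36) and 1 without it. Of 24 genes of moulting and the apical matrix, with a median of -2.21, 14 were called lower and 1 higher, and 3 were called lower without it (median -1.4). The moulting gene mlt-8 stood at 1.78, 1.85 and 0.43 CPM with lithium and at 9.78, 49.995 and 6.52 on plain agar (-4.02, and -2.58 without control replicate 2). The summed level of the 24 genes showed another order, at 729 to 783 CPM with lithium against 626, 1397 and 662. The member that rose was egg-6 (0.91), which encodes a leucine-rich repeat protein of the apical matrix. None of 13 transcription factors of the moulting clock was called, and their median was -0.82 with and -0.44 without control replicate 2.

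Hedgehog-related and patched-related genes, which in worms act in the epidermis and its matrix, gave 15 genes called lower of 43 tested (85 found). That is 34.9%, against 6.33% of all genes tested. None was called higher, and the median was -0.80. Leaving out control replicate 2, 7 were called and the median was -0.70. The patched-related gene ptr-24 was even, at 46.1, 48.4 and 45.8 CPM with lithium and 91.04, 89.6 and 95.4 on plain agar. Its value of -0.98 (SE 0.16, adjusted p = 0.018) was -0.99 without control replicate 2. The warthog gene wrt-1, in contrast, had 2 counts over the 3 lithium libraries and 639 over the controls. The ratio of control to lithium counts per library size was 246.5 (95% counting interval 67.95 to 2040), and wrt-1 stood at 2.08, 36.2 and 4.35 CPM on plain agar. The ground-like gene grl-7 had 0 counts with lithium and was at least 81.0-fold lower, taking 3 counts over the group as the floor.

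Other genes with a large fall were near the counting floor under lithium. The UDP-galactopyranose mutase gene glf-1 had 0 counts with lithium and 786 on plain agar, at 2.73, 45.5 and 4.54 CPM, and was at least 202.1-fold lower on the same floor. C02E7.6 had 1 count against 524, a ratio of 404.2 (95% counting interval 72.2 to 15996), and T03G6.1 had 2 against 471, a ratio of 181.7 (50.01 to 1505). The cuticlin gene cut-3, the lipocalin-related gene lpr-5, the patched-related gene ptr-4, mtre-1 and F15B9.8 had fitted values of -7.83, -7.36, -6.45, -7.0 and -6.47. Leaving out control replicate 2, these were -5.49, -4.83, -4.44, -5.11 and -4.82, all still called. For all but ptr-4 the naming rule required that call and groups that do not overlap. Each of the 5 reached 10 CPM in control replicate 2 alone, as in cut-3, which stood at 0.31, 0 and 0 CPM with lithium and at 4.53, 63.1 and 4.98 on plain agar. Intervals and floors cover counting error only.

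The genes whose fall leaned most on control replicate 2 were chosen by the loss of fold when it was left out. They are col-74, col-165, cut-2, F30H5.3, tts-2 and F41F3.3, and none was called without it. In F41F3.3 the lithium libraries stood at 0.62, 0 and 0 CPM and the controls at 4.10, 96.5 and 6.52. The other controls were still above lithium, with a value of -4.69 (adjusted p = 0.056) in place of -7.44. F30H5.3 had 2 counts with lithium against 747 on plain agar, a ratio of 288.1 (95% counting interval 79.5 to 2384).

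Germline and eggshell genes were higher with lithium. Of 47 genes of germline RNA binding and meiosis 42 had a positive value, 14 were called higher and none lower, with a median of 0.53. Without control replicate 2, 10 were called and the median was 0.31. The translational repressor gene puf-5 stood at 1043, 1132 and 1184 CPM with lithium and at 658, 230 and 617 on plain agar (1.16, and 0.81 without control replicate 2). The oocyte and germline regulator genes gld-1 (965 to 1047 CPM against 395 to 707), mex-3 (364 to 448 against 137 to 271) and oma-2 (465 to 621 against 124 to 311) also had no overlap between groups. Their values without control replicate 2 were 0.63, 0.73 and 0.80. In all 4 of these genes control replicate 2 was the lowest library. Groups without overlap, higher with lithium, were found for 18.4% of all genes tested. The naming rule chose puf-5 and gld-1, and cpg-2 and sip-1 below, for their level. It required a call with and without control replicate 2 and no overlap, so neither is a finding about these genes.

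All 16 eggshell and egg coat genes passed the filter. Of these 15 had a positive value, 8 were called higher (50%, against 5.91% of all genes tested) and the median was 0.83. Without control replicate 2, 3 were called and the median was 0.53. The eggshell proteoglycan gene cpg-2 stood at 2653, 2909 and 2855 CPM against 1512, 604 and 1290, and its value was 1.31 with and 1.00 (adjusted p = 0.0062) without that library. The oocyte pseudophosphatase gene egg-5 rose by 1.26 and the receptor-like gene egg-1 by 1.05. The small heat shock gene sip-1 stood at 1280, 1301 and 1232 CPM against 735, 409 and 652 (1.09, and 0.87 without control replicate 2). The summed level of the 16 genes was 12463 to 13425 CPM with lithium and 8498, 4899 and 8640 in control replicates 1 to 3, so each lithium library lay above each control.

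Sperm genes gave no call among 26 major sperm proteins tested, with a median of -2.11, and their near-identical copies make single values uncertain. In 18 of the 26 every lithium library, but not every control, lay under the level the filter asks for. The same held for 442 of the 12392 genes tested, so the negative median is partly set by the filter. Among 11 spermatogenesis genes 3 were called higher with all libraries (27.3%) and none without control replicate 2. Of 37 histone genes tested 5 were called higher (13.5%) and 1 lower (2.70%), against 5.91% and 6.33% of all genes tested. The lower one, the linker histone gene hil-7 (-5.41), stood at 0.57 to 1.01 CPM with lithium and at 7.97, 79.0 and 8.31 on plain agar. None of the 37 was called without that library. The 13 embryonic fate factors tested gave 1 call in each direction (7.69% each), pal-1 (0.76) and elt-3 (-1.33), and none without control replicate 2.

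**Figure D4:**
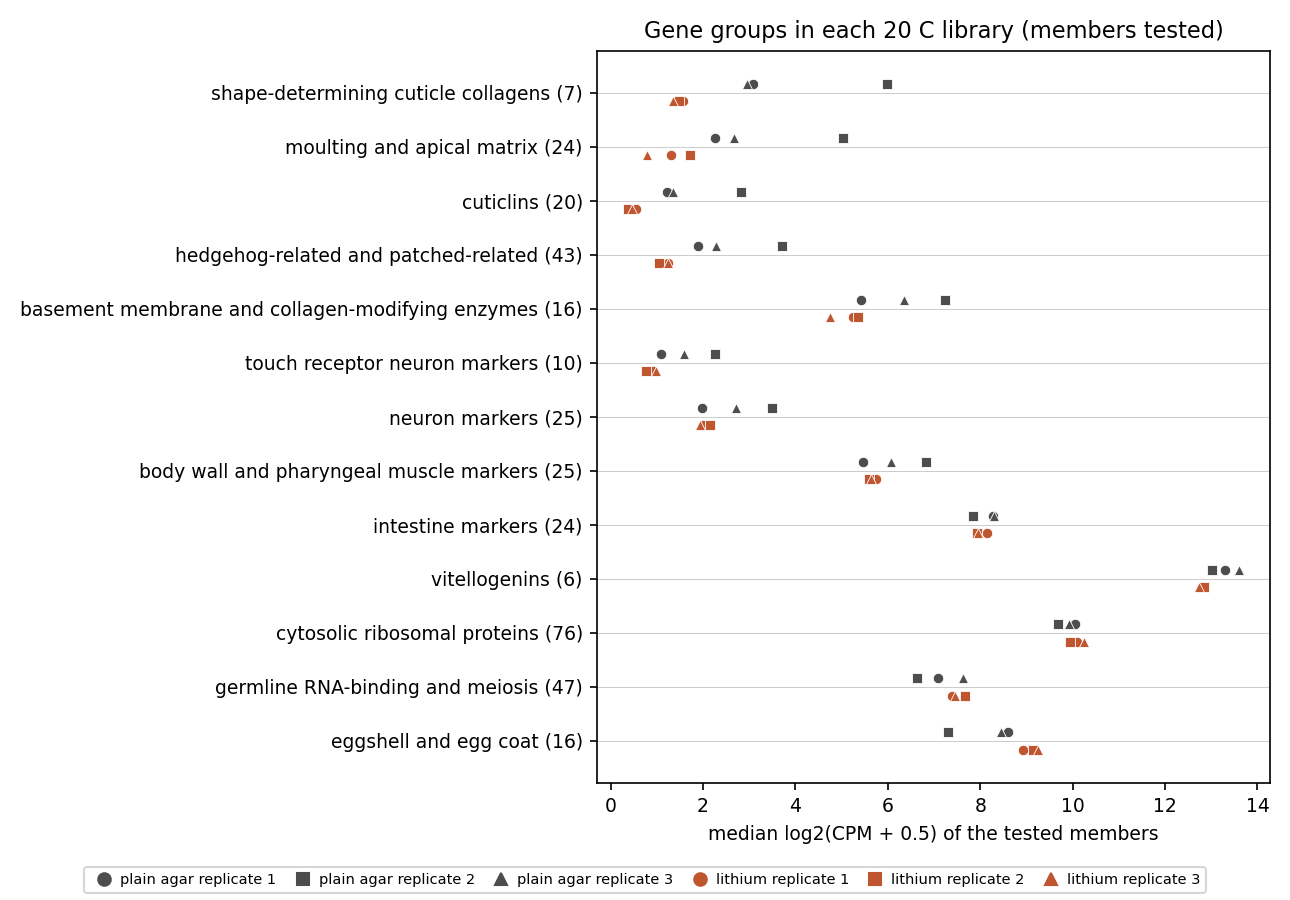
Each marker is the median log2 CPM (plus 0.5) of a gene group's tested members in 1 library, with orange for lithium and grey for plain agar, and the number of members in brackets. In the cuticle, moulting, cuticlin and hedgehog groups control replicate 2 (grey square) lies to the right of the other controls, which lie to the right of the lithium libraries, and in the eggshell group the order is turned around.

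Of 25 muscle markers 23 lay below 0 and 4 were called lower (16%, against 6.33% of all genes tested). The median of -0.61 became -0.19 without control replicate 2, where 1 was called lower and 1, tni-3 (0.98), higher. The potassium channel gene twk-18 stood at 6.28, 4.64 and 3.84 CPM with lithium and at 12.7, 28.5 and 12.9 on plain agar, and it was the 1 lower call that held (-1.87 and -1.38). The summed muscle level was 3932 to 5703 CPM with lithium and 4159, 7855 and 5782 in the controls. The calcium channel gene egl-19 (-1.85) and the troponin T gene tnt-3 (-1.29) had values of -0.90 and -0.95 without control replicate 2.

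Of 25 neuron markers 23 lay below 0 and 1 was called (4%, under the 6.33% of all genes called lower), the motor neuron factor gene unc-3, at 0.21 to 0.36 CPM with lithium against 1.26, 5.11 and 1.64. It was also the 1 neuron marker under the filter's level in every lithium library but not in every control. The neuron median was -0.66 with and -0.25 without control replicate 2. All 10 touch neuron markers tested had negative values, and the tubulin genes mec-7 (-1.42) and mec-12 (-1.26) were called, but not without it (-1.07 and -1.09). Of 89 neuropeptide genes tested flp-5 alone was called (1.12%, under the 5.91% of all genes called higher). It rose from 1.37, 3.90 and 2.13 CPM to 5.66, 5.21 and 5.76 (1.18, and 1.66 without control replicate 2).

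Odour signalling and memory genes gave 3 calls higher (11.5%) and 1 lower (3.85%) of 26 tested, against 5.91% and 6.33% of all genes. The kinase gene akt-1 of insulin signalling stood at 207, 223 and 214 CPM against 149, 138 and 147 (0.57, SE 0.12, adjusted p = 0.027). Its groups did not overlap, as in 18.4% of all genes tested on the higher side, and its value was 0.54 without control replicate 2. The cyclic nucleotide-gated channel gene cng-1, named after its values were seen, stood at 8.69, 11.1 and 8.75 CPM against 0.77, 2.69 and 2.08 (2.37, SE 0.38, adjusted p = 0.017). Its exons share 280 bases with F14H8.8 on the opposite strand. The heterochromatin gene hpl-2 (0.60) had a value of 0.54 (adjusted p = 0.074) without control replicate 2. Among memory genes named whether called or not, egl-4, a cGMP-dependent kinase gene of olfactory adaptation, was at 260 to 304 CPM with lithium and 270 to 286 without, and the forgetting gene tir-1 had a value of -0.60 (SE 0.34, adjusted p = 0.22), which was -0.18 without control replicate 2.

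Of the 21 genes for lithium-sensitive enzymes and inositol signalling none passed the edgeR test in either direction, and the median was -0.21 (-0.04 without control replicate 2). The phosphatase gene ttx-7 stood at 91.1, 98.4 and 136 CPM with lithium and at 110, 62.8 and 83.6 on plain agar, so the groups overlapped. The inositol synthase gene inos-1 stood at 192, 149 and 200 CPM against 138, 146 and 110, at 0.46 (SE 0.17, adjusted p = 0.082). Its groups did not overlap, as in the 18.4% of all genes tested that had this on the higher side. The nucleotidase gene bpnt-1 (0.02, SE 0.21) and gsk-3 (-0.03, SE 0.18) had values near 0, with adjusted p of 0.96 and 0.92. The inositol trisphosphate receptor gene itr-1 varied widely, at 24.2, 48.6 and 31.7 CPM with lithium and 21.8, 86.6 and 104.4 on plain agar. Diacylglycerol kinase gene dgk-1 (-1.88, SE 0.71, adjusted p = 0.092) and the G protein gene egl-30 (-0.56, adjusted p = 0.17) had values of -0.80 and -0.13 without control replicate 2.

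Wnt pathway genes, downstream of which GSK-3 acts on beta-catenin, gave 2 calls in each direction of 24 (8.33% each). Of all genes tested 5.91% were called higher and 6.33% lower. The Wnt secretion gene mig-14 stood at 48.1, 48.0 and 47.6 CPM with lithium and at 32.3, 25.1 and 31.2 on plain agar (0.70, SE 0.17). The ligand gene mom-2 was higher as well (0.77), while the ligand genes cwn-1 (-1.2) and cwn-2 (-2.36) were lower. None of the 4 was called without control replicate 2, where mig-14 had an adjusted p of 0.070. Of 18 genes of diacylglycerol signalling 1 was called higher (5.56%), the lipase gene dagl-2 (0.67, and 0.61 with an adjusted p of 0.053 without that library).

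Defence and detoxification genes were called in both directions, as were all genes tested (5.91% higher and 6.33% lower). Of 79 C-type lectin genes tested (240 found) 5 were called higher (6.33%) and 9 lower (11.4%). Of 62 lysozyme, antimicrobial and infection response genes 3 (4.84%) and 7 (11.3%) were. Leaving out control replicate 2, 3 lectin genes were called higher and 6 lower, and 2 and 3 of the others. Beside clec-5 and clec-190, clec-10 stood at 11.9, 7.99 and 15.2 CPM with lithium and at 36.6, 25.6 and 34.4 without (-1.46). The saposin-like gene spp-15 fell by 1.4 and the antimicrobial peptide gene fipr-13 by 1.25, each also called without control replicate 2, at -1.12 and -1.15. The infection response gene dod-24 rose by 2.05 (SE 0.45, adjusted p = 0.027), from 8.12 to 18.1 CPM to 34.5 to 84.4, and had an adjusted p of 0.052 without that library. None of 15 pals genes was called.

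Of 88 glutathione and UDP-glucuronosyl transferase genes 3 were called higher (3.41%) and 8 lower (9.09%). Of 54 cytochrome P450 genes 2 (3.70%) and 4 (7.41%) were, and the shares of all genes tested were 5.91% and 6.33%. Without control replicate 2 the transferases had 3 calls higher and 7 lower, and the cytochrome genes 2 lower. The transferase gene ugt-62 stood at 109, 67.2 and 114 CPM with lithium and at 306, 226 and 254 without, a value of -1.44 that was -1.53 without control replicate 2. The cytochrome gene cyp-34A8 was even in both groups, at 6.62 to 7.68 CPM against 14.9 to 16.6 (-1.16 both with and without). The cadmium-responsive gene cdr-2 fell by 1.3 and was the 1 call of 13 metallothionein and cadmium response genes (7.69%). The ribonuclease gene rege-1, a regulator of fat and cold survival, fell from 18.4, 25.8 and 19.5 CPM to 7.14, 8.56 and 11.5 (-1.23, and -1.06 without control replicate 2).

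Of 26 targets of the FOXO factor DAF-16 and antioxidant genes 4 were called higher (15.4%) and 2 lower (7.69%). Of all genes tested 5.91% were called higher and 6.33% lower. The desiccation protein gene lea-1 stood at 937, 902 and 479 CPM with lithium and at 378, 450 and 308 without (1.03, and 1.17 without control replicate 2). The water channel gene aqp-2 had a value of -2.60 that became -1.25 (adjusted p = 0.051) without that library, in which it stood at 300.3 CPM against 50.3 and 56.1. Of 42 transthyretin-like genes tested 9 were called lower (21.4%) and none higher. Without control replicate 2, ttr-16 and ttr-1 (-2.02, then -1.81) were the lower calls left of these 9, and 1 member was called higher. Of 167 nuclear hormone receptor genes tested 6 were called lower (3.59%, under the 6.33% of all genes), among them nhr-31 (-1.03) and nhr-69 (-1.04), and none without that library. Their median moved from -0.36 to -0.02. The desaturase genes fat-6 (-0.08) and fat-7 (-0.57) and the membrane fluidity gene paqr-2 (-0.18) were not called.

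With all libraries, genes of chromosome X were called lower more often than those of any autosome and were seldom called higher. Of 1789 tested genes on X, 9 were called higher (0.503%) and 202 lower (11.3%), with a median of -0.45. On the autosomes 5.45 to 8.55% were called higher and 3.57 to 7.18% lower, with medians of -0.18 to 0.10. As background, X-linked genes are largely silent in the worm germline, and the germline lists above were higher with lithium. Whether the germline lists play a part in the X result was not tested. Without control replicate 2 the X counts were 5 higher (0.279%) and 59 lower (3.30%) and the median -0.24, while 1.11 to 3.07% of the autosomal genes were called lower. The lower calls on X were 403 without control replicate 1, 232 without control replicate 3, and 2, 0 and 4 without lithium replicate 1, 2 and 3, where few genes were called on any chromosome. With each of the 6 libraries left out the X median ran from -0.55 to -0.24. None of 14 mitochondrial genes tested was called.

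**Figure D5:**
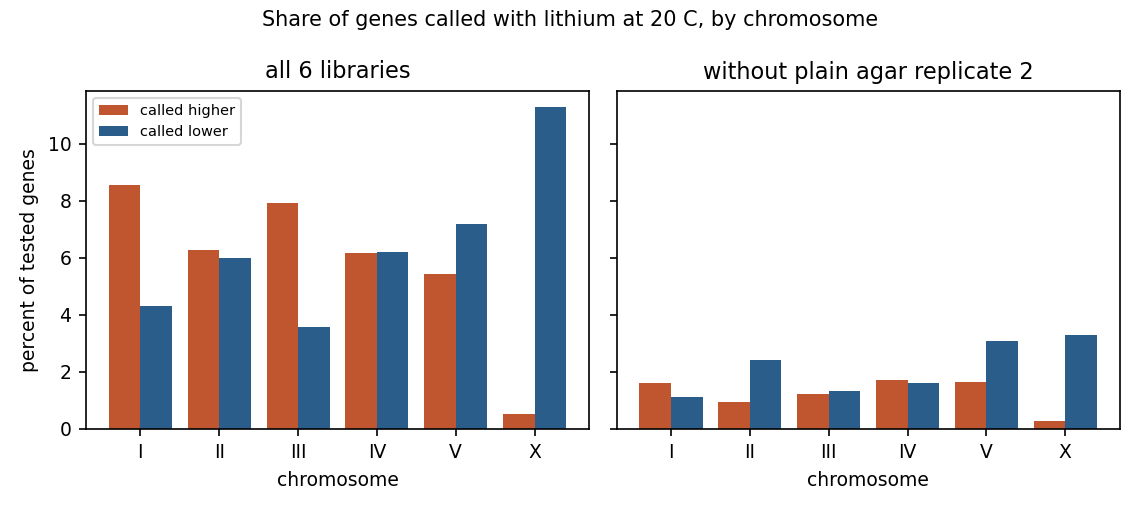
Bars give the percentage of tested genes on each chromosome called in each direction with lithium at 20 C, with all 6 libraries (left) and without control replicate 2 (right). On X 11.3% were called lower and 0.503% higher, and 3.30% and 0.279% without control replicate 2.

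Lithium was also given at 15 C, to worms with their own plain agar controls, and there 20 genes were called higher and 28 lower (0.387% of the genes tested). Of the genes called at 20 C, 13 of those called higher and 21 of those called lower were also called in the same direction at 15 C. The values at 15 C were -1.72 for pck-1, -2.45 for dhp-2, -1.24 for ttr-16, -2.40 for T16G1.7, -1.3 for nsun-1, -1.55 for gcn-1, 2.02 for clik-3, 3.14 for cng-1 and 3.94 for parg-2. All of these were called at 15 C, with an adjusted p of at most 0.0082. The nucleolar list had 5 members called lower at 15 C and a median of -0.43.

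With all libraries, other groups had a smaller median at 15 C than at 20 C. The values were 0.01 against 0.53 for germline and 0.13 against 0.83 for eggshell. They were -1.13 against -2.21 for moulting and -0.15 against -0.59 for the propionate shunt. Without control replicate 2 of 20 C, these 20 C medians were 0.31, 0.53, -1.4 and -0.56, so the moulting medians lay closer together. The median of collagens that set body shape was -2.82 at 15 C. At 20 C it was -4.34 with that library and -2.49 without it. The value of hphd-1 was -0.46 (adjusted p = 0.21) at 15 C, that of cpr-5 -0.35 (adjusted p = 0.39) and that of cpg-2 0.35 (adjusted p = 0.50). The test of the difference between temperatures called no gene in edgeR (0.00%), with 1261 genes at an unadjusted p under 0.05, and 2 in DESeq2. A difference between 20 C and 15 C was therefore not shown for any gene described here by edgeR, for which the lowest adjusted p of the difference among the 118 genes chosen by the rule was 0.48.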

How the data were processed

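The authors deposited gene counts that had not been normalized. The submitters' processing notes name cutadapt, FastQC, HISAT2, HTSeq, DESeq2 and genome build ce11. Per the labels' protocols RNA was extracted with TRIzol and libraries were made with a directional kit. Tool versions and whether counting used strand are not given in the sources used here. Ensembl's release 115 annotation, on the same assembly, gave positions and symbols for 46817 of 46904 genes. The 22 ribosomal RNA genes took 1.18 to 8.14% of a 20 C library and 1.08 to 28.4% of a 15 C library. At 15 C the highest shares were 28.4 and 24.2% in plain agar replicates 2 and 3 and 13.8% in lithium replicate 2.

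All 12 libraries of the lithium experiment (4 groups of 3) went into 1 fit with edgeR 4.0.16, limma 3.58.1 and R 4.3.3, using TMM scaling, filterByExpr and the robust quasi-likelihood test, two-sided, adjusted by Benjamini-Hochberg over 12392 genes. The common biological coefficient of variation was 0.294. Chi-square per degree of freedom between replicates was 24.7 or more, so they spread beyond counting error. The script was tested on simulated counts. DESeq2 1.42.0, other size factors, no filter, no ribosomal RNA rows, a replicate block, and each library left out were alternatives.

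Named genes are the 8 higher and 8 lower with the largest change and the 4 of each with the highest level, called with and without control replicate 2, with at least 10 CPM and no overlap. Each list adds at most 3 of its called members with at least 10 CPM, those of smallest p. Close replicates and groups apart in these genes are therefore partly set by the choice. Further names are 12 fixed genes and the 6 lower genes that lost most fold without control replicate 2. Other list members are named as part of a count. Members, rule and lists were chosen with earlier results of these data known, and lists of the propionate shunt, the vitamin B12-dependent route and basement membrane after values had been seen. Of 118 named genes 25 overlap another protein-coding gene in exons, 20 of them on the opposite strand. Mitochondrial genome genes were counted by chromosome. Promoter sequences were not analysed here.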

Additional observations from a re-analysis of the deposited data

How the results depend on the processing

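The number of genes called at 20 C was 1516. It was 2542 with DESeq2, 984 without a filter on low counts, 1515 with DESeq2's size factors, 1497 without ribosomal RNA rows and 1503 without robust estimation. It was 0 in the 6 libraries of 20 C alone and 64 in these with a replicate block. With 1 library left out it ran from 5 to 2855, and leaving out replicate 2 of both groups, chosen with the plan, gave 38. At 15 C the 48 calls became 433 with DESeq2, 73 without ribosomal RNA rows, and 11 to 237 with 1 library left out, and 95 without replicate 2 of both 20 C groups. The difference between temperatures gave 0 calls in each edgeR fit that held both temperatures and 2 in DESeq2. The cause of these moves was not tested. Whether the replicate numbers pair the samples is not stated. Residuals of same-numbered 20 C libraries correlated at -0.235, -0.0930 and 0.341, and those of other pairs at -0.512 to 0.496. Residuals centred within groups of 3 cannot decide the pairing. With a replicate block the fit of all 12 libraries gave 1479 calls, of which 1284 were shared with the main fit. Reversed signs were seen in genes with values near 0: with 1 library left out gsk-3 ran from -0.132 to 0.0308, bpnt-1 from -0.0875 to 0.132 and fat-6 from -0.175 to 0.0237. Leaving out replicate 2 of both groups gave 0.106 for gsk-3 and -0.0250 for bpnt-1, and leaving out ribosomal RNA rows gave -0.0198 for bpnt-1. No scaling moved the median of all genes by over 0.1.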
